A study of Macaca fascicularis with 2 samples.

Results

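The B lineage transcripts examined among CD4+CD8+ double positive (DP) T cells were *IGKC*, *JCHAIN*, *CD79A* and *MS4A1*, 4 of the 29324 genes counted. They were taken by their symbols in the gene list, and they were chosen by measured values, because earlier results of these same data had shown their RNA among T cells. Their identifiers were ENSMFAG00000030705 (*IGKC*), ENSMFAG00000041799 (*JCHAIN*), ENSMFAG00000001013 (*CD79A*) and ENSMFAG00000043565 (*MS4A1*), and each symbol stood on 1 row. In the RefSeq gene table of another assembly of the species (T2T-MFA8v1.1), *CD79A* lies between *RPS19* and *ARHGEF1*, *MS4A1* between *MS4A12* and *MS4A5*, and *JCHAIN* between *UTP3* and *ENAM*. *IGKC* was not found in that table. The assembly behind the counts was another one, so no position is given.

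The cells came from fresh peripheral blood of 1 untreated cynomolgus monkey, 10 years old. CD4+ cells were drawn with magnetic beads, and a further bead step took the CD8+ cells among them. The droplets gave 1 library of gene RNA and 1 library of CD4 and CD8α antibody tags from the same barcodes. Neither bead step was directed at a B cell protein, and 1 preparation of 1 animal was analysed, so nothing here is replicated and no test was made.

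In B cells, *IGKC* encodes the constant region of the kappa light chain of antibodies, and *CD79A* encodes a signalling chain that pairs with *CD79B* in the B cell receptor. *MS4A1* encodes the surface protein CD20, which mature B cells carry and plasma cells lose. *JCHAIN* encodes the chain that joins IgM and IgA into polymers, and it is abundant in antibody-secreting cells. All are textbook B lineage genes, whereas T cells are known by the CD3 chains and the T cell receptor.

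Of 8953 barcodes, 8830 passed the limits of the study (200 to 4000 genes and at most 20% mitochondrial UMIs). A UMI (unique molecular identifier) stands for 1 captured RNA molecule, and the median over cells was 3145 gene UMIs and 1127 genes. UMIs of *CD3D*, *CD3E*, *CD3G* and *TRAC* were added up as T cell UMIs, and a cell with at least 5 of them was taken as a T cell. *CD3E* was found in 96.3% of all cells, and the median tag counts were 418 for CD4 and 298 for CD8. There were 8151 T cells (92.3%), 235 cells with at most 1 T cell UMI and 444 cells in between. Levels are CPM, the UMIs of a gene per 1000000 gene UMIs summed over a group of cells, with exact Poisson 95% intervals. Shares of cells have exact binomial (Clopper-Pearson) 95% intervals. Both cover counting error within this preparation only. The intervals of levels and of their ratios treat each UMI as independent, so they are too narrow where several UMIs lay in 1 cell. CPM was not divided by gene length, so levels are compared between groups of cells and not between genes.

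All 4 transcripts were found in T cells, but at very different rates. *CD79A* had a UMI in 1053 of the 8151 T cells (12.9%), *IGKC* in 183 (2.25%), *MS4A1* in 48 (0.589%) and *JCHAIN* in 41 (0.503%). After each cell was thinned to 2200 UMIs, so that deep and shallow cells could be set side by side, the shares were 8.90% for *CD79A* (8.27 to 9.56%), 1.45% for *IGKC* (1.2 to 1.75%), 0.563% for *MS4A1* (0.408 to 0.758%) and 0.419% for *JCHAIN* (0.287 to 0.591%). In all, 6950 T cells (85.3%) held no UMI of the 4 genes and 1141 (14%) held 1 of them, mostly *CD79A*. Only 23 T cells held all 4.

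For comparison, 112 cells had at most 1 T cell UMI and at least 2 UMIs of *CD79A* and *MS4A1* together. They were selected on those genes, so their values are a description of what B cell RNA looks like in this library. *MS4A1* was found in all 112 of these cells (1949 CPM) and *CD79A* in 111 (1383 CPM). *IGKC* was found in 74 (846 CPM) and *JCHAIN* in 67 (730 CPM). In T cells the levels were 49.4 CPM for *CD79A* (46.9 to 52.0), 16.4 for *IGKC* (15 to 17.9), 14.4 for *MS4A1* (13.1 to 15.8) and 13.2 for *JCHAIN* (11.9 to 14.6).

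The UMIs themselves were divided differently between T cells and other cells. Of 2328 *CD79A* UMIs, 1468 (63.1%) lay in T cells. The corresponding numbers were 487 of 1019 for *IGKC* (47.8%), 393 of 1079 for *JCHAIN* (36.4%) and 428 of 1547 for *MS4A1* (27.7%). *JCHAIN* was the most uneven, since its 3 highest cells, with 240, 146 and 52 UMIs, held 438 UMIs (40.6% of the total).

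**Figure D1:**
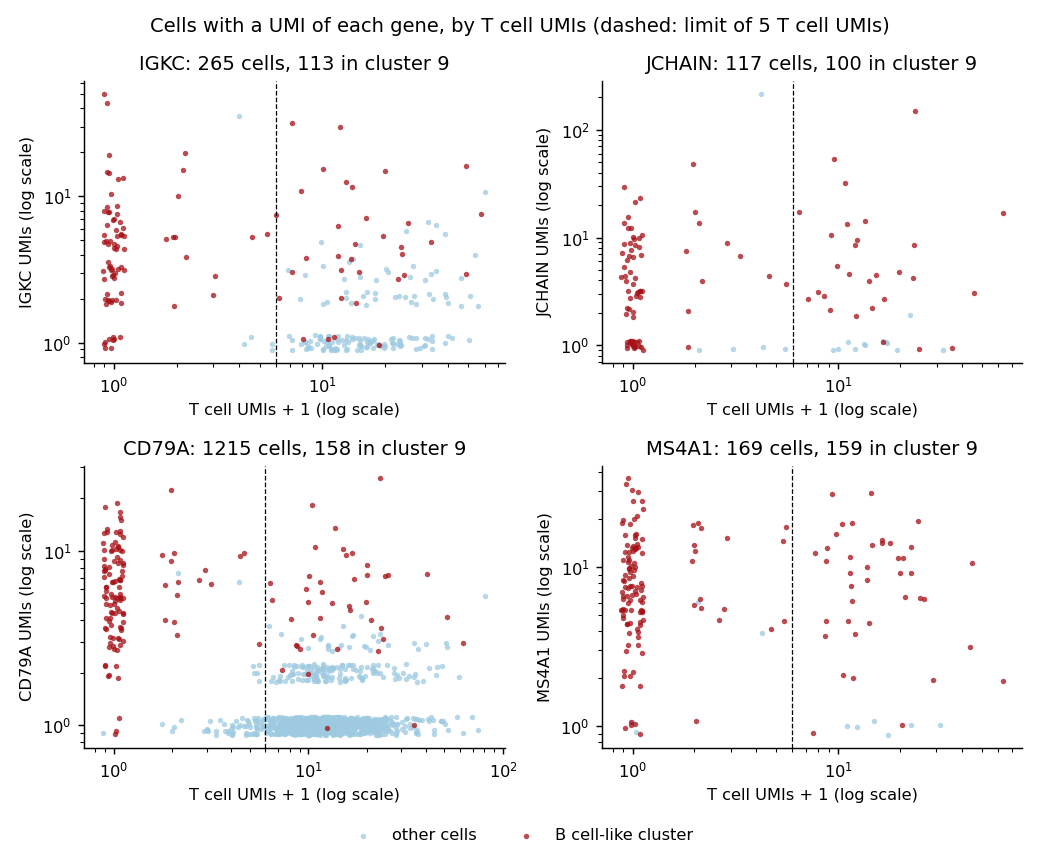
Each point is a cell with at least 1 UMI of the gene named above the panel, with T cell UMIs + 1 on the horizontal axis and UMIs of the gene on the vertical axis, both on log scales, and points spread slightly so that equal values can be seen. Red points are cells of the B cell-like cluster, blue points all other cells, and the dashed line is the limit of 5 T cell UMIs. To the right of the line *MS4A1* lies almost wholly in red points, while *CD79A* forms a broad band of blue points at 1 UMI.

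The cells were clustered without the 4 genes and without the other B lineage genes listed here, so that their levels by cluster were not fixed by the clustering. This gave 17 clusters. Cluster 9 (161 cells) was B cell-like, led by named genes such as *MS4A1*, *HLA-DRA* and *CD79B*. The B cell marker list behind this name held *CD79A* and *MS4A1*, so the name is not independent of these genes. Of the cells of cluster 9, 114 had at most 1 T cell UMI and 42 were T cells by the limit used here. Those 42 cells were 0.515% of all T cells (0.372 to 0.696%), yet they held 98.6% of the *MS4A1* UMIs in T cells (422 of 428), 96.7% of the *JCHAIN* UMIs (380 of 393), 48.5% of the *IGKC* UMIs (236 of 487) and 17.6% of the *CD79A* UMIs (259 of 1468).

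In the 42 T cells of cluster 9, *CD79A* and *MS4A1* were found in all 42, *IGKC* in 34 and *JCHAIN* in 29. *MS4A1* stood at 1029 CPM (933 to 1132) and *JCHAIN* at 927 (836 to 1025). *CD79A* stood at 632 (557 to 713) and *IGKC* at 575 (504 to 654). Positive cells held many molecules, with a median of 10 *MS4A1* UMIs and 5 *CD79A* UMIs. The median among positive cells with B cell RNA and at most 1 T cell UMI was 7 for *MS4A1* and 6 for *CD79A*.

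These 42 cells had a median of 9359.5 gene UMIs. The median was 4550 in the 112 cells with B cell RNA and at most 1 T cell UMI and 3152 in the 6950 T cells without any of the 4 genes, and these medians add up to 7702. Their median CD4 tag count was 451, against 420 in the T cells without the 4 genes and 136 in the 112 cells. The median CD8 tag counts were 790.5, 303 and 199.5 in the same order. The median doublet score from Scrublet was 0.181 in the 42 cells, against 0.0997 and 0.0797, and 10 of the 42 were among the 6% of cells with the highest scores. Scrublet itself called 0 of the 8830 cells at its automatic threshold, so the caller did not work here and no cell was removed. The part of doublets in these values was not tested.

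A cell was said to hold both kinds of RNA when it had at least 5 T cell UMIs and at least 2 UMIs of *CD79A* and *MS4A1* together. There were 207 such cells (2.54% of T cells, 2.21 to 2.90%). They fell into unlike groups. The 46 with an *MS4A1* UMI had a median of 9128.5 gene UMIs, and 42 of them lay in cluster 9. The other 161, which passed on *CD79A* alone, had a median of 3676 gene UMIs, and 0 of them lay in cluster 9. At a limit of 4 UMIs the number fell to 44 cells, and at a limit of 1 it was 1055.

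A panel of 11 other B lineage genes was used to set apart cells with more B cell RNA (among them *CD22*, *PAX5*, *BANK1*, *BLK*, *FCRLA*, *FCRL1*, *TNFRSF13C*, *VPREB3*, *EBF1* and *FCER2*). The list as first drawn up also held *CD79B* and *CR2*. These were taken off after their counts had been seen, because 538 of the 598 *CR2* UMIs and 135 of the 1476 *CD79B* UMIs lay in T cells outside cluster 9. *CR2* had its highest level in the Th17-like cluster 2 (90.7 CPM). Of the T cells, 66 had a UMI of the panel and a median of 8104 gene UMIs, and 8085 had none. In these 8085 cells *MS4A1* was at 0.274 CPM (8 UMIs in 7 cells) and *JCHAIN* at 0.377 CPM (11 UMIs in 11 cells), 52.5-fold and 35.1-fold below the levels in all T cells. *IGKC* was at 8.53 CPM (249 UMIs in 149 cells), and *CD79A* was at 41.3 CPM (1204 UMIs in 1009 cells).

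*CD79A* and *IGKC* were thus still found in T cells without the panel, mostly as single molecules. Of the 1009 cells with *CD79A*, 847 held 1 UMI and the highest held 5. Of the 149 cells with *IGKC*, 101 held 1 UMI, 25 held 2, 16 held 3 or 4, 6 held 5 to 9 and 1 held 12. Empty droplets were not used here, so the free RNA of this preparation was not measured directly.

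The 4 transcripts did not keep 1 ratio across groups of cells. In cells of cluster 9 with at most 1 T cell UMI, *MS4A1* made up 39.4% of the UMIs of the 4 genes, *CD79A* 27.8%, *IGKC* 17.4% and *JCHAIN* 15.4%. In the 42 T cells of cluster 9 the shares were 32.5%, 19.97%, 18.2% and 29.3%, where 1 cell gave 146 of the 380 *JCHAIN* UMIs. In T cells outside cluster 9, *CD79A* made up 81.7% (79.7 to 83.7%), *IGKC* 17.0% (15.1 to 19%), *JCHAIN* 0.879% (0.469 to 1.5%) and *MS4A1* 0.406% (0.149 to 0.881%). The clusters differed as well, from 98.7% *CD79A* in cluster 6 to 92.4% *IGKC* in cluster 11.

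**Figure D2:**
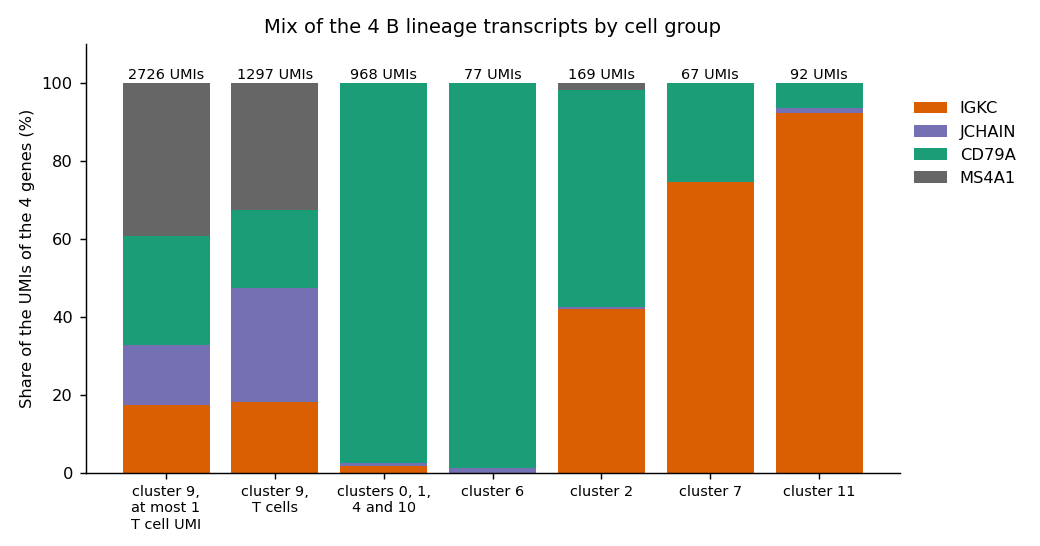
Bars give the share of the UMIs of the 4 genes (vertical axis, %) that each gene made up in 7 groups of cells, with the number of UMIs above each bar. *MS4A1* is a large share only in the 2 bars of cluster 9, *CD79A* fills nearly the whole bar in clusters 0, 1, 4 and 10 and in cluster 6, and *IGKC* is the larger share in clusters 7 and 11.

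A partner gene gave a similar picture for *CD79A*. In cluster 9 there were 0.801 *CD79A* UMIs for each *CD79B* UMI (0.738 to 0.869). In T cells outside cluster 9 there were 8.96 (7.49 to 10.8), with 1209 *CD79A* and 135 *CD79B* UMIs. The interval did not overlap that of cluster 9. The clusters differed in this ratio, which was 16.9 in clusters 0, 1, 4 and 10 (12.9 to 22.5), 0.286 in cluster 11 (0.0944 to 0.732) and 0.600 in T cells with *IGKC* and without the panel (0.294 to 1.18).

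*CD79A* was read by cluster next. Clusters 0, 1, 4 and 10 (5238 cells) had 5 or 6 of 6 naive markers (among them *PECAM1*, *TCF7*, *CD7*, *CCR7* and *LEF1*) at raised levels, as did cluster 6, but their leading genes gave them no name. *CD79A* stood at 51.6, 68.4, 40.9 and 75.4 CPM in these clusters, in that order. Together they held 945 *CD79A* UMIs in 804 cells (15.3%, and 11.8% after thinning), at 59.0 CPM (55.3 to 62.9). In the same 5238 cells *MS4A1* had 0 UMIs, which allows up to 0.187 CPM, *IGKC* had 17 and *JCHAIN* had 6. Of the 1009 T cells with *CD79A* and without the panel, 768 lay in these clusters (76.1%, 73.4 to 78.7%), which held 4907 of the 8085 T cells without the panel (60.7%).

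The lowest levels of *CD79A* were in the CD4 CTL-like cluster 3, with 16 UMIs in 15 of 849 cells (5.06 CPM, 2.89 to 8.21), and in the unnamed cluster 8, with 1 UMI in 168 cells (1.30 CPM). These cells were deeper (medians of 3513 and 4380 gene UMIs) than those of clusters 0, 1 and 4 (2623, 3103 and 2860.5). Cluster 10 had a median of 3961, above that of cluster 3 and below that of cluster 8. The thinned share in clusters 3 and 8 was 1.01% (0.484 to 1.85%). *CD79A* was 13.6-fold higher in clusters 0, 1, 4 and 10 than in clusters 3 and 8 (8.48 to 23.5-fold). The 2 clusters were chosen after their values were seen. Of the genes compared between these groups, 8.82% were at least 2 times higher in clusters 0, 1, 4 and 10.

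The remaining clusters of T cells lay between these levels. The Treg-like cluster 6 (407 cells) was at 53.2 CPM of *CD79A* (41.9 to 66.5), and its interval overlapped that of clusters 0, 1, 4 and 10. The CD8 CTL-like cluster 5 was at 31.4 CPM, the Th17-like cluster 2 at 21.0, the Eomes+ Tr1-like cluster 7 at 16 and the other Treg-like cluster, cluster 11, at 11.1 (4.08 to 24.2). The innate-like cluster 13, with few T cell UMIs, had 87.6 CPM (55.6 to 132) from 23 UMIs in 14 of 54 cells, and 3 of its cells held RNA of the B lineage panel. Below cluster 9, the interval of each cluster overlapped that of the next cluster in the order of *CD79A* levels.

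**Figure D3:**
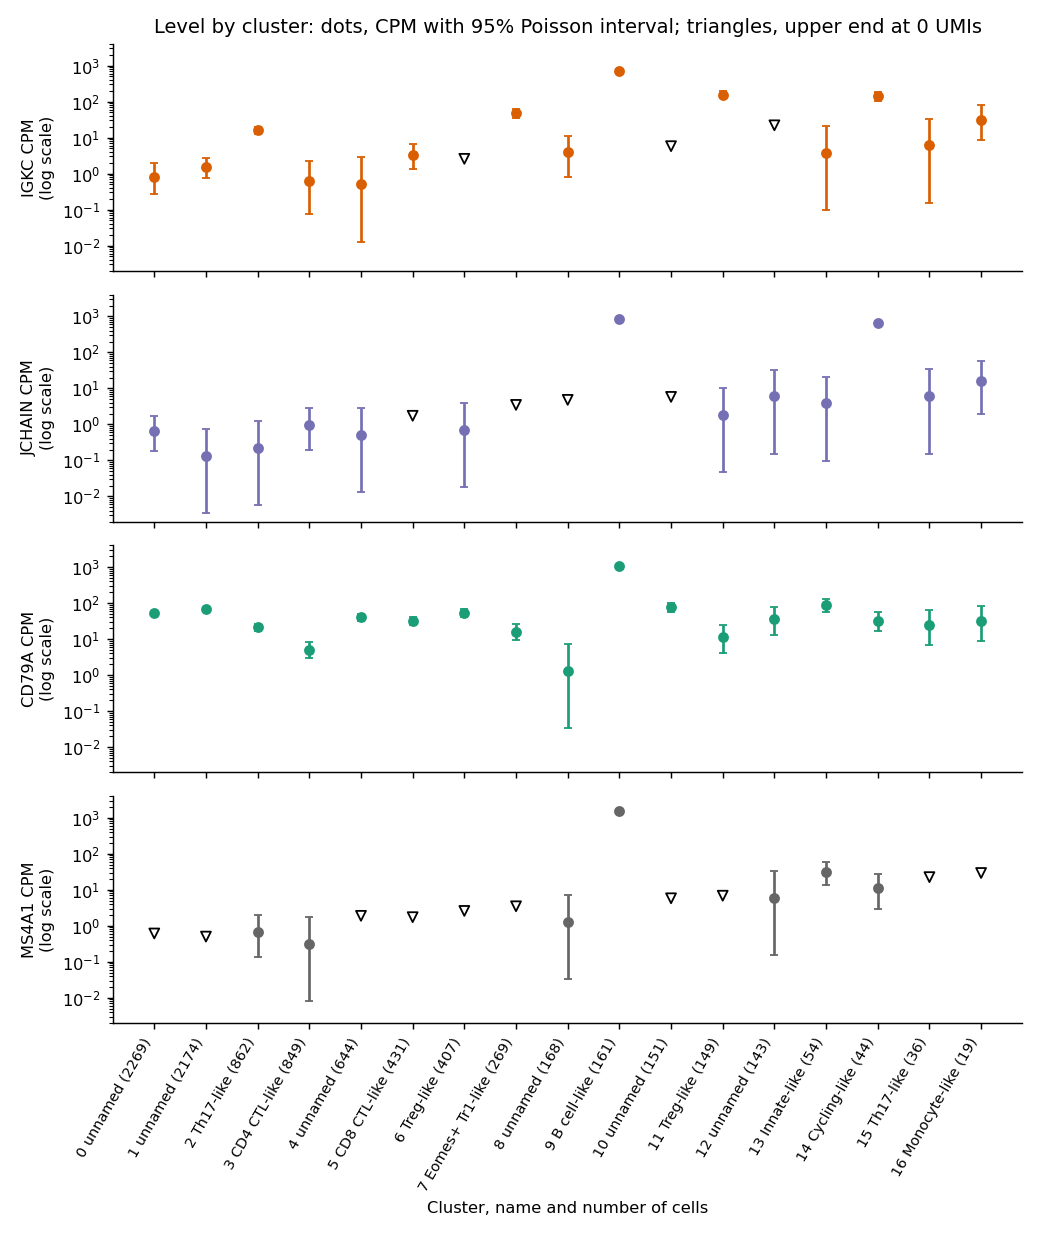
Level of each gene (CPM on a log scale, vertical axis) in the 17 clusters, which are named with their number of cells on the horizontal axis. Dots are CPM with 95% Poisson intervals, and open triangles mark the upper end of the interval where a cluster had 0 UMIs. Cluster 9 has the highest level of every gene, *IGKC* stands out in clusters 2, 7, 11 and 14, and *CD79A* is low in clusters 3 and 8.

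*IGKC* had another pattern. At the clustering used here, its highest level outside cluster 9 was in cluster 11 (149 cells), which was led by *CGA*, *FOXP3*, *AGR3*, *TNFRSF18* and *PRSS57* and carried Treg markers. *FOXP3* encodes the master regulator of regulatory T cells, and *TNFRSF18* encodes GITR, a receptor of these cells. In cluster 11, 42 cells held 85 *IGKC* UMIs (28.2% of cells, 157 CPM, 126 to 195), and the share was 20.9% after thinning. The other Treg-like cluster, cluster 6, had 0 *IGKC* UMIs in 407 cells. Set against the limit of 3 UMIs that a count of 0 allows in cluster 6, the *IGKC* level of cluster 11 was 75-fold higher. This value leaves out the counting error of the 85 UMIs, so it is not a lower bound. Of the genes compared between these clusters, 6.98% were at least 2 times higher in cluster 11. *CD79A* went the other way, 4.79-fold higher in cluster 6 (2.10 to 13.5-fold).

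Cluster 11 did not stand alone under the 4 other clustering settings. Its cells then fell into clusters of 367 to 1028 cells with 30.6 to 64.7 CPM of *IGKC*, and the highest level outside the B cell-like cluster (133 to 142 CPM) was that of the cycling-like cells, where 2 cells held all 52 UMIs. The cluster with most of the cells of cluster 6 held 0 *IGKC* UMIs under 3 of these settings and 2 UMIs in 470 cells with 10 principal components (1.2 CPM).

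The median depths of clusters 11 and 6 were 3217 and 3340 gene UMIs. Their CD4 tag medians were 436 and 385 and their CD8 tag medians 226 and 237. Within cluster 11, 5 of 149 cells held RNA of the B lineage panel, and without these 5 cells *IGKC* was still found in 42 cells (164 CPM). *MS4A1* had 0 UMIs and *JCHAIN* 1 UMI in cluster 11.

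The Eomes+ Tr1-like cluster 7, led by *GZMK* and *EOMES*, had 50 *IGKC* UMIs in 32 of 269 cells (47.1 CPM, 34.9 to 62.1). The Th17-like cluster 2, led by *CR2*, *CR1*, *CTSL* and *CCR6*, had 71 UMIs in 47 of 862 cells (15.9 CPM, 12.4 to 20.01). In contrast, clusters 0, 1, 4 and 10 were at 1.06 CPM (0.618 to 1.70) and cluster 3 at 0.632 CPM (0.0766 to 2.28). *IGKC* was 74.5-fold higher in cluster 7 than in cluster 3 (19.6 to 632-fold), where 2.73% of the genes compared were at least 2 times higher. Clusters 2, 7 and 11 held 120 of the 149 T cells with *IGKC* and without the panel (80.5%) and 1237 of the 8085 T cells without the panel (15.3%). These clusters were chosen for their *IGKC* levels, so the shares are a description. The order of the levels was cluster 11, cluster 7 and cluster 2, and their intervals did not overlap. The cycling-like cluster 14 reached 142 CPM, but its 52 UMIs lay in 2 cells with 40 and 12 UMIs. In cluster 3, with a median of 3513 gene UMIs, *IGKC* was found in 2 of 849 cells (0.236%).

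In cluster 11 *IGKC* was also compared between cells with and without *CGA*, the leading gene of the cluster, which encodes the common alpha chain of the glycoprotein hormones. *IGKC* was found in 21 of 39 cells with a *CGA* UMI (53.8%, 37.2 to 69.9%) and in 21 of 110 cells without (19.1%, 12.2 to 27.7%). After thinning the shares were 33.3% and 16%, and their intervals overlapped. For *FOXP3*, *IGKC* was found in 26 of 85 cells with a UMI and in 16 of 64 cells without.

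*IGKC* was set beside the variable segments of the kappa locus, because a rearranged light chain carries a variable segment on the same RNA. Only 6 IGKV symbols stood in the gene list, and 5 of them were found in a cell. In cluster 9 cells with at most 1 T cell UMI, 9 of the 75 with *IGKC* also held an IGKV UMI (12%, 5.64 to 21.6%). Among the T cells of cluster 9 it was 1 of 34 (2.94%). Among T cells with *IGKC* and without the panel it was 0 of 149. These 149 cells held 249 *IGKC* UMIs, against 474 in the 75 cells of cluster 9, so these shares of cells are not compared. Counted by UMIs, cluster 9 cells with at most 1 T cell UMI held 325 IGKV UMIs, or 68.6 for each 100 *IGKC* UMIs. These 325 UMIs lay in 15 cells. The T cells of cluster 9 held 1 IGKV UMI beside 236 *IGKC* UMIs, and the 149 cells held 0 beside 249. The part of capture in these values was not tested. A lambda variable segment, *IGLV3-9*, had all 34 of its UMIs in T cells outside cluster 9, whereas *IGLV3-1* had 53 of 58 UMIs in cluster 9. With so few segments named, most variable segments were not seen in any group, and the constant regions of the heavy and lambda chains (*IGHM*, *IGHD*, *IGLC1*) were not among the symbols used here.

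*MS4A1* was close to absent from T cell clusters. Outside cluster 9 it had 6 UMIs in 6 of 8109 T cells (0.205 CPM, 0.0751 to 0.446), against 1537 CPM in cluster 9 (1461 to 1616). Of these 6 cells, 3 lay in cluster 2. In the whole library 98.8% of *MS4A1* UMIs lay in cluster 9. Its highest level elsewhere was in cluster 13, with 8 UMIs in 3 of 54 cells, of which 1 cell held 6.

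*JCHAIN* was also rare in T cell clusters, with 13 UMIs in 12 of the 8109 T cells outside cluster 9 (0.444 CPM, 0.236 to 0.758). No T cell cluster from 0 to 8 had more than 4 UMIs. The cycling-like cluster 14 had 240 *JCHAIN* UMIs, all in 1 cell. That cell had 3 T cell UMIs, 24207 gene UMIs, 40 *IGKC* UMIs and 15 UMIs of *MZB1*, a gene of antibody-secreting cells. It held 6 of the 7 cycling markers. The cell with 146 UMIs lay in cluster 9 and had 21 T cell UMIs, 19538 gene UMIs, 28 *MZB1* UMIs and 11 UMIs of *TNFRSF17*, which encodes the plasma cell receptor BCMA, but 0 *IGKC* UMIs. It thus passed as a T cell by the limit of 5 UMIs and carried the largest *JCHAIN* count among T cells.

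T cells were then divided by *FOXP3*, *GZMK* (granzyme K) and *MKI67* (a marker of dividing cells). The members had been selected on these divisions in earlier results, so the ratios are a description. A *FOXP3* UMI was found in 373 T cells. *IGKC* was at 54.6 CPM in these (43.6 to 67.6) and at 14.3 CPM in the other 7778 (12.9 to 15.7), a log2 ratio of 1.94 (1.58 to 2.28), and 3.05 (2.64 to 3.44) without cells of the B lineage panel. The thinned shares were 6.06% (3.84 to 9.03%) and 1.22% (0.984 to 1.5%). Of the 9973 genes compared, 2.08% were at least 2 times higher with *FOXP3*, and of the 4 members it was *IGKC* alone.

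Among T cells with *FOXP3*, the *IGKC* UMIs lay in some clusters and not in others. Of the 83 in cluster 11, 26 held *IGKC* (31.3%, 21.6 to 42.4%). Of the 206 in cluster 6, 0 held it, which allows a share of up to 1.46%. Of the 44 in cluster 2, 6 held it, and of the 40 elsewhere, 4 did.

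The other members did not follow *IGKC* in the cells with *FOXP3*. *CD79A* had a log2 ratio of -0.35 (-0.74 to 0.02). *JCHAIN* had 2 UMIs and *MS4A1* 4 UMIs in the 373 cells, with log2 ratios of -3.43 and -2.55. Without cells of the panel the *JCHAIN* ratio was 2.01 (-1.24 to 4.28), on 2 against 9 UMIs, so its direction was not stable. *MS4A1* then had 0 UMIs in the cells with *FOXP3*.

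A *GZMK* UMI was found in 535 T cells. *IGKC* was higher in these by 1.10 on the log2 scale (0.73 to 1.45), at 32.1 against 15 CPM. Without the 6% of cells with the highest doublet score the ratio was 0.50 (0.00041 to 0.96), below the limit of 2 times. *MS4A1* was higher by 1.87 (1.54 to 2.19). All 104 of its UMIs lay in 8 cells of cluster 9, and without cells of the panel it had 0 UMIs in cells with *GZMK*. *IGKC* did not lie there alone, with 38 UMIs in 27 of the 234 *GZMK* cells of cluster 7, 37 UMIs in 7 of the 8 cells of cluster 9 and 2 UMIs in the other 293. *CD79A* had a log2 ratio of -0.09 (-0.38 to 0.19) in all T cells and -0.80 (-1.21 to -0.41) without the panel, where its UMIs stood at 24.5 CPM with *GZMK*. *JCHAIN* had a ratio of -0.14 (-0.74 to 0.41), which became 0.24 (-5.20 to 3.05) without the panel on 1 against 10 UMIs. Of the genes compared, 6.07% were at least 2 times higher with *GZMK*, and of the members these were *IGKC* and *MS4A1*.

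An *MKI67* UMI was found in 95 T cells, where 11.8% of the genes compared were at least 2 times higher. The members past that limit were *IGKC* and *JCHAIN*. The log2 ratio of *JCHAIN* was 4.71 (4.41 to 5.02), but all 146 of its UMIs came from 1 cell, and without the 3 cells with the most *JCHAIN* UMIs the cells with *MKI67* had 0. *IGKC* had a log2 ratio of 1.07 (0.38 to 1.69), from 22 UMIs in 6 cells, of which 12 UMIs lay in 1 cell of cluster 14, and of 2.14 (1.44 to 2.78) without the panel. Its thinned shares in all T cells were 3.19% with *MKI67* (0.663 to 9.04%) and 1.43% without (1.18 to 1.73%), and these intervals overlapped. *CD79A* was at 0.28 (-0.22 to 0.74) in all T cells and at -1.25 (-2.26 to -0.40) without the panel, so its direction changed with those cells. *MS4A1* was at 0.36 (-0.61 to 1.18).

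**Figure D4:**
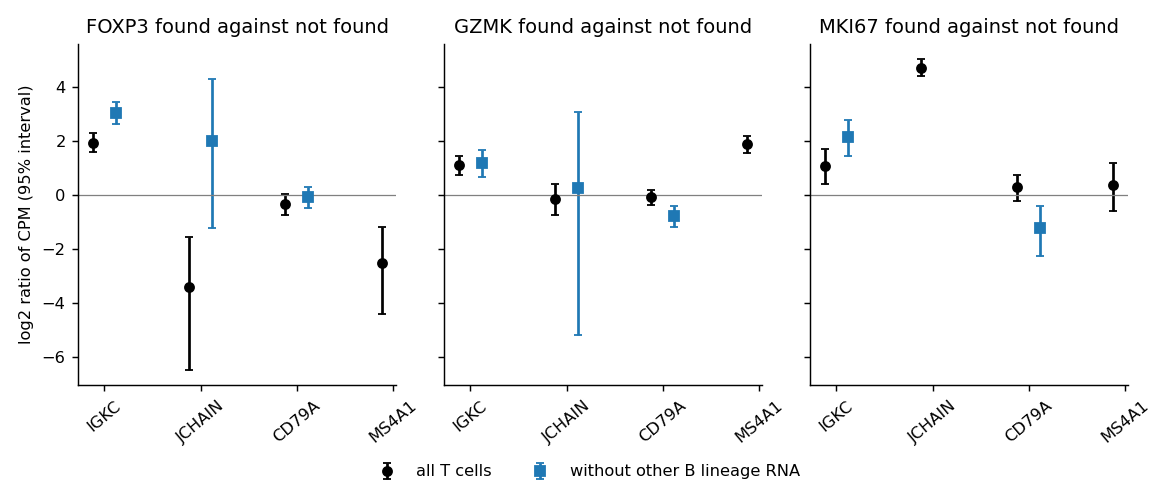
Log2 ratio of CPM (vertical axis) between T cells with and without a UMI of *FOXP3*, *GZMK* or *MKI67* for each of the 4 genes, with 95% intervals from the split of the UMIs. Black dots are all T cells and blue squares are T cells without RNA of the B lineage panel, and no square is drawn where a group had 0 UMIs. *IGKC* lies above 0 in all 3 panels on both sets of cells, but with *MKI67* 12 of its 22 UMIs lay in 1 cell. *JCHAIN* with *FOXP3* or *GZMK* and *CD79A* with *MKI67* change sign between the sets.

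T cell UMIs and total depth were read next. The 170 cells without a T cell UMI had 596 CPM of *IGKC*, 486 of *JCHAIN*, 1000.5 of *CD79A* and 1421 of *MS4A1*. All 4 levels were lower in T cells. Across cells with 5 to 9, 10 to 19 and 20 or more T cell UMIs, *CD79A* stayed at 49.5, 49.2 and 49.6 CPM. *MS4A1* was at 13.6, 14.7 and 14.8 CPM. *IGKC* was at 10.4 (8.37 to 12.7), 14.8 (13 to 16.9) and 30.4 CPM (26.0 to 35.4), so its level was higher in cells with more T cell RNA. *JCHAIN* was at 14.1, 5.45 and 33.3 CPM, and the last of these rested on the cell with 146 UMIs. The cells with 20 or more T cell UMIs were also deeper, with a median of 5938.5 gene UMIs against 2806 in those with 5 to 9.

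By depth, all 4 genes had their highest level in the 642 T cells with 6000 or more gene UMIs, at 64.7 CPM for *IGKC*, 74.6 for *JCHAIN*, 81.2 for *MS4A1* and 86.0 for *CD79A*. In the 1387 T cells with at least 4000 and under 6000 UMIs the levels were 8.90, 0.151, 0.603 and 31.5 CPM. Without the panel the deepest cells were at 21.7 CPM of *IGKC* (17.7 to 26.4), 0.426 of *JCHAIN* (0.0516 to 1.54) and 0.426 of *MS4A1* (0.0516 to 1.54). *IGKC* thus remained higher in the deepest cells than in those with at least 2000 and under 3000 UMIs (5.32 CPM, 3.85 to 7.16). *CD79A* without the panel was at 51.3, 40.3, 31.1 and 39.0 CPM in the bins from 2000 UMIs upward, and did not rise with depth.

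**Figure D5:**
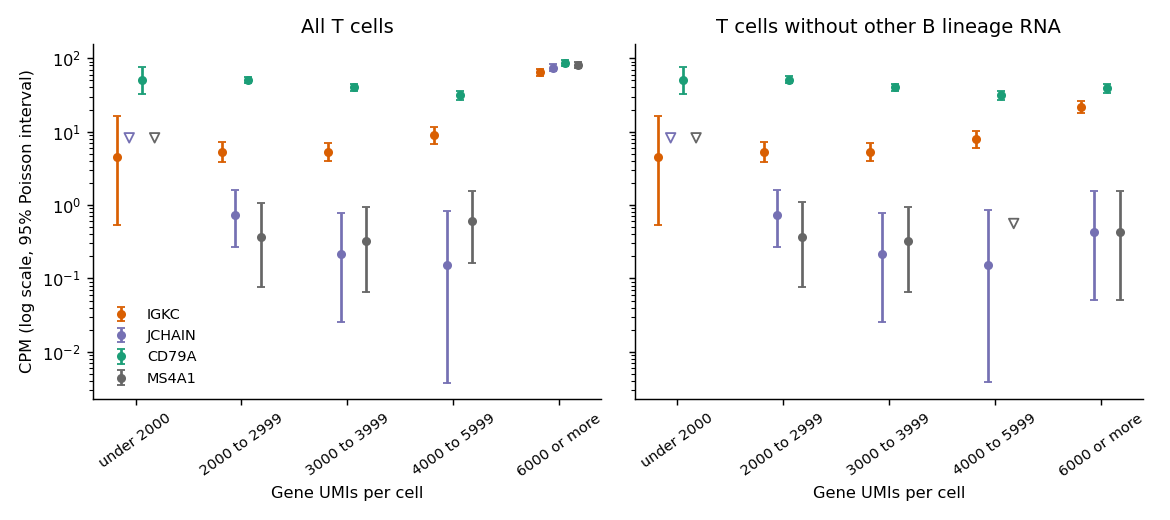
Level of each gene (CPM on a log scale, with 95% Poisson intervals, vertical axis) in T cells by their number of gene UMIs (horizontal axis), for all T cells on the left and for T cells without RNA of the B lineage panel on the right. Open triangles mark the upper end of the interval where a bin had 0 UMIs. In the deepest bin *JCHAIN* and *MS4A1* stand at 74.6 and 81.2 CPM on the left and at 0.426 CPM on the right, and *CD79A* stands at 86.0 and 39.0 CPM.

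*IGKC* rose with the CD4 tag as well. By CD8 tag *IGKC* showed no steady order, whereas *CD79A* fell from group to group. T cells outside cluster 9 were divided into 4 groups of about equal size by their CD4 tag count. *IGKC* was at 2.90 CPM in the lowest (1.74 to 4.52), 6.69 in the next (4.82 to 9.05), 10.9 in the third (8.52 to 13.6) and 12 in the highest (9.93 to 14.4). *CD79A* was at 41.0, 50.8, 42.5 and 34.3 CPM in the same order. By CD8 tag, *IGKC* was at 3.63, 10.5, 6.69 and 11.9 CPM and *CD79A* at 49.99, 48.8, 37.8 and 33.0 CPM from the lowest group to the highest. The intervals of the lowest and highest CD8 groups lay apart for *IGKC* (2.27 to 5.49 and 9.76 to 14.3). They also lay apart for *CD79A* (44.5 to 55.9 and 29.4 to 36.9). The part of depth and of the clusters in these orders was not tested.

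Within T cells the members were found together more in some pairs than in others. Of the 48 T cells with *MS4A1*, 46 held *CD79A*, 34 held *IGKC* and 29 held *JCHAIN*. Of the 183 with *IGKC*, 34 (18.6%) held *MS4A1* and 47 (25.7%) held *CD79A*, against 12.6% with *CD79A* among T cells without *IGKC*. In cluster 9 all 42 T cells held *CD79A*, and 34 of them held *IGKC*, so most of this overlap lay there. Without the panel, the 149 T cells with *IGKC* held 15 *CD79A* UMIs, against 1204 in all 8085. Of the 1053 with *CD79A*, 993 held no other member, and these had a median of 3258 gene UMIs, against 3152 in T cells without any member. Outside cluster 9, 17 T cells held 2 members and 1 held 3.

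Other B lineage genes were compared between the 112 cells with B cell RNA and at most 1 T cell UMI and 8109 T cells. These were the T cells outside cluster 9, and 6950 of them held none of the 4 genes. The comparison therefore does not show what came with the 4 transcripts. The 112 cells were selected on *CD79A* and *MS4A1* and cluster 9 was left out, so high ratios of B lineage genes were partly fixed in advance. A UMI in both groups was found for 10297 genes. The interval lay above 0 for 17.1% of these and below 0 for 10.1%, and their median log2 ratio was 0.11. Of the receptor and coreceptor list, 6 of 12 were among the symbols, and 5 had an interval above 0 with a median log2 ratio of 9.73. *CD22* had 4 UMIs and *FCER2* had 1 UMI in these T cells, and *CD72* had 0. *CD79B* had 135 UMIs (4.61 CPM). *CR2*, a complement receptor of B cells, was the least different, with a log2 ratio of 1.74 (1.2 to 2.24).

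Of the transcription and signalling list, 17 of 19 were among the symbols. Here 12 had an interval above 0, with a median log2 ratio of 11.26, and the other 5 (*EBF1*, *BTK*, *FCRL2*, *VPREB3* and *TCL1A*) had 0 UMIs in these T cells. *PAX5*, which fixes B cell identity, had 1 UMI, and *BLNK* and *FCRL1* had 1 each. *POU2AF1*, a B cell coactivator, had 67 UMIs in 63 T cells (2.29 CPM) and *IRF8* had 31.

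The plasma cell list behaved differently. Of 9 genes among the symbols, 4 had an interval above 0 (*MZB1*, *IRF4*, *TNFRSF17* and *DERL3*), 2 had an interval below 0 (*PRDM1* and *SSR4*), and *SDC1* had no UMI at all. *PRDM1*, which T cells also use, had 510 UMIs in T cells outside cluster 9 and 1 UMI in the 112 cells. The median log2 ratio of the list was 1.84. *MZB1* had 54 UMIs in 52 of these T cells (1.84 CPM).

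For each member, the 5 genes with the largest ratio between T cells with and without it were ranked. With *IGKC* in all T cells these included *FCRLA*, *SPI1*, *HLA-DMB* and *MS4A1*, which were 82.4 to 122-fold higher. Without cells of the panel the leading genes were *CGA* (104-fold, 332 against 3.20 CPM), *HDAC9* (33.4-fold), *CCR9* (18.0-fold), *MSC* (13.5-fold) and *CHN1* (12.7-fold). The lists share no gene, and the cells with *IGKC* were deeper in both, with medians of 5125 against 3168.5 and of 4249 against 3164 gene UMIs.

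With *CD79A* in all T cells the leading named genes were *CD74* (8.81-fold), *DUSP2* (2.30-fold), *HLA-DPB1* (1.88-fold) and *POLD1* (1.69-fold). Without the panel they were *CTSW* (1.55-fold), *SOX4* (1.51-fold), *DNMT3A* (1.48-fold) and *PYM1* (1.48-fold), together with ENSMFAG00000000257 (1.62-fold). *CD74* and *HLA-DPB1*, genes of antigen presentation on class II molecules, were not among these. With *MS4A1* in all T cells they included *FCRLA* and *JCHAIN* (1952-fold), and the leading genes with *JCHAIN* all carried an identifier only. Without the panel these comparisons rested on 7 and 11 cells.

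Across the 17 clusters, the genes most like a member in log2(CPM + 5) were ranked by Pearson correlation over 10177 genes. This is a description, since the clusters share 1 library and the correlation leans on cluster 9. For *IGKC* and *JCHAIN* the high level of cluster 14 also enters, and it rests on 2 cells and 1 cell. For *MS4A1* the nearest were *BLNK* (0.99), *FCRL2*, *VPREB3* and *VPREB1* (0.97 each). For *CD79A* they were *KAT2A* and *PKIG* (0.86 each), *RALGPS2* (0.84), *TSPAN3* and *PIP4P1* (0.81 each). For *IGKC* they included *CENPM* (0.87), *COMMD3* (0.85), *CXCR5* (0.83) and *TMED8* (0.82). The nearest genes to *JCHAIN* carried an identifier only. Among the members themselves *CD79A* and *MS4A1* were most alike (0.77) and *IGKC* and *CD79A* least (0.35).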

How the data were processed

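Per the labels and the methods of the study, the authors made the deposited counts with Cell Ranger 3.1.0 (STAR 2.5.1b, genome Macaca_fascicularis_5.0). They hold whole UMI counts per gene and barcode and UMI counts of the CD4 and CD8 tags, not normalized. No column stayed without a sample.

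Cells were filtered with the limits of the study, and 8830 of 8953 barcodes passed, more than the study kept. Levels are summed UMIs per 1000000 gene UMIs (CPM). Intervals (95%) are exact Poisson for CPM, Clopper-Pearson for shares and a binomial split of UMIs for ratios. A count of 0 was read as a limit of 3 counts. Shares were thinned to 2200 UMIs, which left out 754 shallower cells. Clusters were made in Seurat 5.3.0 (R 4.3.3) with 2000 variable genes, 20 principal components, 20 neighbours and resolution 0.8, leaving out 53 B lineage genes, and named where 3 of the marker genes were raised. Naming rules and the shortened B lineage panel were set after the counts had been seen. Scrublet called 0 of 8830 cells (threshold 0.675), and no doublet was removed. Scripts used Python 3.11.15, scipy 1.17.1 and scanpy 1.11.5 and were tested on simulated data with independent UMIs. There is 1 preparation of 1 animal, so no test was made and no p-value is given.

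The genes named beside each member were the 5 with the largest ratio between T cells with and without it, among genes with 50 or more UMIs that were found in 10% or more of the cells on the higher side, and the 5 with the highest correlation over the clusters. The genes of the B lineage lists were named too. The 4 genes and all lists were chosen with earlier results of these data known. Of the genes, 7899 carry an identifier only. Some genes of these lists and rankings are not reported here.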

Additional observations from a re-analysis of the deposited data

How the results depend on the processing

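No paired analysis was possible because there was 1 preparation of 1 animal. All intervals cover counting error only, free RNA was not measured, and levels under about 1 CPM rest on few UMIs. Of 209 values under other settings, 144 moved by less than the interval of the value they were set against, 62 moved further and 3 reversed. The number of cells with both kinds of RNA has no interval, so its values were sorted by their fold change instead. A further 14 ratios could not be formed because a group had 0 UMIs. The cause of each shift was not tested, except that fewer cells enter where cells are left out. No value moved further in size with at most 10% mitochondrial UMIs, with all barcodes, with 10 principal components or at resolutions of 0.4 and 1.2.

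At the other clustering settings the highest *IGKC* level outside the B cell-like cluster, though close in size (133 to 142 CPM), was no longer that of cluster 11 but of the cycling-like cells, with all UMIs in 2 cells. At each setting the B cell-like cluster was taken as the one with the highest *MS4A1* level. A low *MS4A1* level outside it was therefore partly fixed in advance.

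A reversal is a change of sign of a ratio whose interval did not include 0, and the 3 found were all *JCHAIN* with *FOXP3*. Ratios whose interval included 0 also changed sign, among them *CD79A* with *MKI67*, from 0.28 to values below 0, and *JCHAIN* with *GZMK*. The log2 ratio of *JCHAIN* with *FOXP3* was 2.26 in T cells without the full B lineage list, 2.01 without the panel and 1.70 outside cluster 9. The intervals of these values all included 0.

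The selections of cells by the panel and by cluster 9, and the removal of 3 cells, were added after the data had been seen. In T cells without the full list, without the panel and outside cluster 9, in that order, *IGKC* was at 6.64, 8.53 and 8.56 CPM, *JCHAIN* at 0.375, 0.377 and 0.444, *CD79A* at 42.6, 41.3 and 41.2, and *MS4A1* at 0.225, 0.274 and 0.205. The thinned shares of cells were 0.903%, 1.10% and 1.09% for *IGKC*, 0.113%, 0.119% and 0.118% for *JCHAIN* and 0.0706%, 0.0792% and 0.0658% for *MS4A1*. The log2 ratio of *IGKC* with *FOXP3* was 2.87, 3.05 and 3.01 and with *MKI67* 2.83, 2.14 and 2.12. That of *CD79A* with *GZMK* was -0.99, -0.80 and -0.81 and with *MKI67* -1.61, -1.25 and -1.27. *IGKC* with *GZMK* was 1.47 without the full list.

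Without the 6% of cells with the highest doublet score, *MS4A1* was at 12.9 CPM, and the log2 ratios with *GZMK* were 0.50 for *IGKC*, -2.02 for *JCHAIN* and 1.44 for *MS4A1*. With at least 3 T cell UMIs, *JCHAIN* was at 20.9 CPM, its log2 ratio was -0.86 with *GZMK* and 6.07 with *MKI67*, and that of *IGKC* with *MKI67* was 2.52. With at least 10, *IGKC* was at 19 CPM, *MS4A1* with *GZMK* at 2.21 and *JCHAIN* with *MKI67* at 5.28 on the log2 scale. With the mean of the CPM of each cell, the log2 ratios were 2.57 for *IGKC* and -1.41 for *JCHAIN* with *FOXP3*, 1.54 for *IGKC* and -0.78 for *CD79A* with *GZMK*, and -0.75 for *CD79A* with *MKI67*. Thinning to 1500 UMIs gave shares of 1.07% for *IGKC*, 0.247% for *JCHAIN* and 6.45% for *CD79A*, and no thinning gave 2.25% for *IGKC* and 12.9% for *CD79A*. Without the 3 cells with the most *JCHAIN* UMIs, *JCHAIN* was at 6.57 CPM in T cells and at most 15.8 CPM in a cluster other than cluster 9. Its log2 ratio with *GZMK* was then 0.99, and that of *CD79A* with *MKI67* was -1.5. With the B lineage lists kept in the clustering, the highest *MS4A1* level outside the B cell-like cluster was 10.3 CPM. Cells with both kinds of RNA numbered 1055 with at least 1 UMI of *CD79A* and *MS4A1* and 44 with at least 4.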
